A study of Mus musculus with 25 samples.

Results

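The response of inguinal white adipose tissue (iWAT), the subcutaneous fat pad of the groin, to loss of Acod1 on a high-fat diet (HFD) was described from 8 of the 25 libraries of the series. They were chosen by their titles: 3 libraries from HFD-fed Acod1-/- mice and 5 from HFD-fed wild type mice, 1 library per mouse. All were male C57BL/6N littermates from Acod1+/- breeding pairs, individually caged from 5 weeks of age, when the HFD, with 60% of calories from fat, began. The knockout strain, C57BL/6N-Acod1em1(IMPC)J/J, carries a whole-body deletion that is not restricted to macrophages or to fat. The diet lasted 16 weeks by the study's methods, but the labels give 16 weeks for the 5 wild type libraries and for Acod1-/- library 1, 17 weeks for Acod1-/- library 2 and 18 weeks for Acod1-/- library 3. The 3 libraries of iWAT from wild type animals kept on normal diet (ND), and the 5 wild type and 5 Acod1-/- libraries of epididymal white adipose tissue (eWAT) from HFD-fed mice, are given only where they stand beside a result.

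Acod1 encodes the mitochondrial enzyme that makes itaconate from cis-aconitate, an intermediate of the tricarboxylic acid (TCA) cycle, and it is induced mainly in activated macrophages. Itaconate inhibits succinate dehydrogenase and modifies cysteines of proteins that control inflammation. In obesity, macrophages collect in fat and take up lipid, while adipocytes enlarge, secrete more leptin and oxidise fewer branched-chain amino acids. Inguinal fat can also gain beige adipocytes, which burn fuel for heat through the uncoupling protein Ucp1.

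Primers of quantitative PCR from the same work are shown for 3 genes described here, because they mark the transcripts that stand for macrophages (Adgre1, a surface receptor of mature macrophages), mitochondrial biogenesis (Ppargc1a, the coactivator PGC-1alpha) and heat production (Ucp1). Each pair matched transcripts of 1 gene of GENCODE vM21 only, with amplicons of 91, 150 and 141 bases. Sequences run 5′ to 3′ and no base is marked.
Adgre1 forward: aagactgacaaccagacggc
Adgre1 reverse: ctgcctccactagcatccag
Ppargc1a forward: atcacgttcaaggtcaccctac
Ppargc1a reverse: ttctgcttctgcctctctctct
Ucp1 forward: tggtgaacccgacaacttcc
Ucp1 reverse: ggccttcaccttggatctgaa
In GRCm38, Adgre1 lies on chromosome 17 (57358691 to 57483527, plus strand), Ppargc1a on chromosome 5 (51454250 to 51567726, minus strand) and Ucp1 on chromosome 8 (83290352 to 83298452, plus strand).

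Between 39.14 and 48.98 M reads per wild type library were counted on genes (median 41.52 M), and 40.26, 32.26 and 43.43 M in Acod1-/- libraries 1, 2 and 3. Levels are given as CPM, counts relative to the reads of a library after scaling of the library sizes. The adipocyte genes Adipoq and Pparg were present in every library, and the list of mesothelial and visceral fat markers summed to 0.337 to 2.47 CPM. Several libraries stood apart. Acod1-/- library 2 held 156 genes at 5 CPM or more that were at least 10 times their level in every other library, against 9 in wild type library 5, 1 each in wild type library 1 and Acod1-/- library 1, and 0 in the rest. Its 156 genes included the epidermal keratin Krt14 (416 CPM, at most 0.813 elsewhere) and the sebaceous wax synthase Awat2 (1104 CPM, 0.335 to 4.66 elsewhere), and its skin and mammary epithelium markers summed to 625 CPM, against 4.66 to 13.2 in the other libraries. The genes particular to wild type library 5 included the B cell genes Pax5, Cd79a and Cr2. Skeletal muscle markers summed to 127 to 616 CPM in the Acod1-/- and 30.8 to 502 CPM in the wild type libraries. Column headers of the deposited files place wild type libraries 1 to 4 and Acod1-/- libraries 1 and 2 in 1 series of numbers, and wild type library 5, Acod1-/- library 3 and the ND-fed group in another. For Acod1-/- library 3, the labelled 18 weeks and this series cannot be told apart from each other.

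The targeted gene was near the detection limit. Acod1 (ENSMUSG00000022126, chromosome 14, 103046977 to 103056573) had 2, 0, 0, 3 and 9 counts in wild type libraries 1 to 5 and 0, 2 and 0 counts in Acod1-/- libraries 1 to 3. The groups overlapped, with means of 0.0599 ± 0.0732 CPM (SD, n = 5) in wild type and 0.0206 ± 0.0356 CPM (SD, n = 3) in Acod1-/- (two-sided exact permutation test, p = 0.571). A count of 3, taken as the floor, equals 0.0594 to 0.0926 CPM in these libraries, so a difference was not detectable at this depth and these counts do not check the genotype.

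Of the 14394 genes whose mean over these libraries reached 1 CPM, no gene passed the test. edgeR's quasi-likelihood test called 0 genes higher (0.0%) and 0 lower (0.0%) in Acod1-/- at the threshold of 0.1 on the adjusted p, of which the smallest value was 0.19. With the unadjusted p, 1124 genes were higher (7.81%) and 1121 lower (7.79%) at 0.05. The lowest Acod1-/- value lay above the highest wild type value in 569 genes (3.95%) and the reverse held in 639 (4.44%). DESeq2's Wald test on the same counts called 347 higher (2.41%) and 528 lower (3.67%). Without Acod1-/- library 3, edgeR called 1301 higher (9.01%) and 1269 lower (8.79%) of 14445 genes. Without Acod1-/- library 2, the library with the skin genes, it called 0 in each direction (0.0%), and the same was found without Acod1-/- library 1. Of 1289 genes called higher without library 3 that were also tested with it, library 3 lay above the wild type mean in 644 (49.96%) and above every wild type library in 300 (23.3%). Of 1267 called lower, it lay below the mean in 684 (54.0%) and below every wild type library in 355 (28.0%). Over all 14394 genes, library 3 lay above every wild type library in 3306 (23.0%) and below every one in 3450 (24.0%). The number of calls thus depended on this library, and the main gene groups are given below with their level in each Acod1-/- library, as the median over the genes of a list of the log2 CPM difference from the wild type mean. For a wild type library, the same value was taken from the mean of the other wild type libraries. This makes the wild type spans below wider than they would be on the mean used for the Acod1-/- libraries. Because no gene passed, fold changes are described as measured values. Their SE is the size of the log2 fold change divided by the square root of edgeR's F statistic, so it restates the test.

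**Figure D1:**
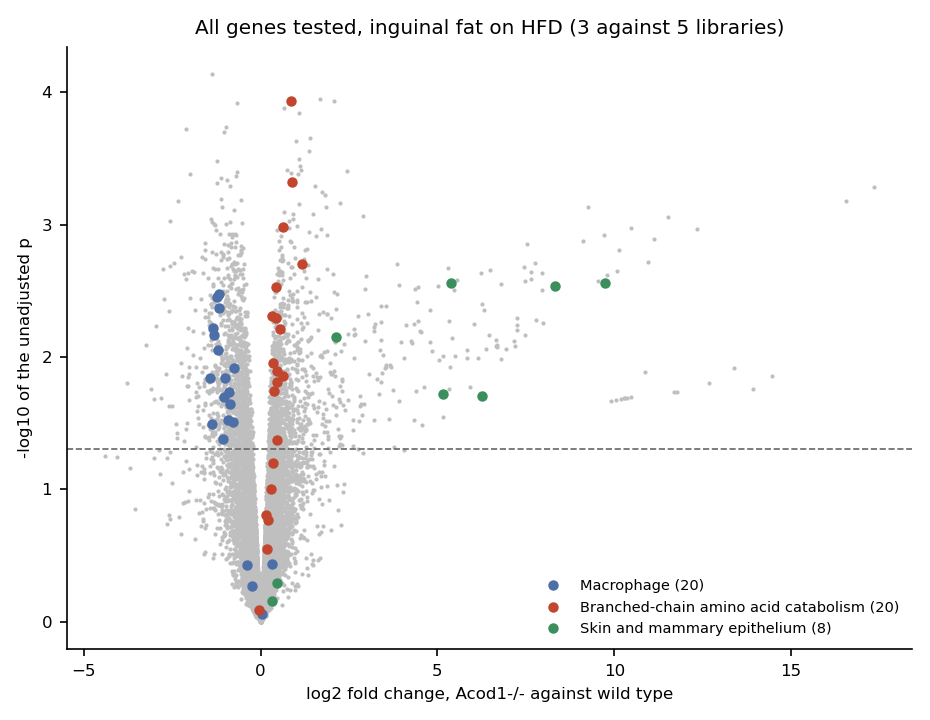
Each grey point is 1 of the 14394 genes tested, with the log2 fold change in Acod1-/- against wild type iWAT on the horizontal axis and -log10 of edgeR's unadjusted p-value on the vertical axis. The dashed line marks 0.05 and the coloured points are 3 gene lists, of which macrophage markers lie mostly left of 0, branched-chain amino acid genes right of 0, and skin genes far to the right, where Acod1-/- library 2 alone sets their level.

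Macrophage markers were lower in every Acod1-/- library than on average in wild type iWAT. Of 20 markers tested, 18 had a negative log2 fold change, with a median of -1.02 against 0.02 over all genes, 16 had an unadjusted p under 0.05, and 7 lay below every wild type library. Among all genes tested, 7.79% were lower at this p and 4.44% lay below every wild type library. On the higher side the shares were 7.81% and 3.95%, and the counts of every list below stand against these shares. Their median difference from the wild type mean was -0.67, -1.06 and -1.02 (log2 CPM) in Acod1-/- libraries 1, 2 and 3. Wild type libraries, each set against the mean of the other wild type libraries, spanned -0.78 to 0.83. This wider reference means that the span does not place Acod1-/- library 1 inside the wild type values. Adgre1 was at 52.8, 26.5, 32.8, 64.4 and 19.5 CPM in wild type libraries 1 to 5 and at 18.2, 11.4 and 16.6 CPM in Acod1-/- libraries 1 to 3 (log2 fold change -1.35 ± 0.38 SE). The groups did not overlap, but wild type library 5 and Acod1-/- library 1 were close. Cd68, a lysosomal protein of phagocytes, was at 100, 53.7, 42.3, 86.7 and 30.5 CPM against 24.7, 32.4 and 24.1 CPM (-1.21 ± 0.37), and here Acod1-/- library 2 lay above wild type library 5. Lyz2 (lysozyme, with a near-identical copy, Lyz1), Lgals3 (galectin-3) and C1qb (complement C1q) had log2 fold changes of -1.16, -1.24 and -1.18, each with groups that did not overlap. DESeq2 called 12 of the 20 lower, and edgeR without Acod1-/- library 3 called 5. Among all genes, these fits called 3.67% and 8.79% lower, and 2.41% and 9.01% higher. In these bulk samples, fewer macrophages and less RNA per macrophage cannot be told apart.

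Genes of lipid-associated macrophages, the lipid-laden cells of obese fat, were measured lower as well but varied more. Of 14 tested, 11 had a negative log2 fold change (median -0.56), 6 had an unadjusted p under 0.05, and in 0 did the groups separate. Their median was -1.40, -0.27 and -0.80 in Acod1-/- libraries 1, 2 and 3. The wild type span was -0.93 to 0.67, with each wild type library set against the others, so it does not place library 3 inside. Trem2, the receptor that defines these cells, was at 46.3, 17.4, 10.5, 21.03 and 6.52 CPM in wild type and at 4.23, 11.9 and 6.04 CPM in Acod1-/- iWAT (-1.46 ± 0.62). The wild type libraries spread over a wider range than the difference between the groups, and wild type library 5 lay among the Acod1-/- libraries. Atp6v0d2, a lysosomal proton pump subunit, and Itgax, the integrin CD11c, had log2 fold changes of -1.81 and -1.11.

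Chemokines and inflammatory mediators were low in all 3 Acod1-/- libraries. Of 26 tested, 23 had a negative log2 fold change (median -0.99), 11 of these and 1 with a positive value had an unadjusted p under 0.05, and 7 lay below every wild type library. Their medians in the Acod1-/- libraries were -0.94, -0.83 and -0.93 from the wild type mean, outside the wild type span of -0.60 to 0.50. Ccl2, the chemokine that draws monocytes into fat, was at 8.63, 8.59, 7.21, 32.7 and 8.44 CPM in wild type and at 1.87, 4.35 and 4.77 CPM in Acod1-/- iWAT (-1.84 ± 0.59). All 3 Acod1-/- values were below the wild type values, of which library 4 was the highest, and without that library the log2 fold change was -1.16. Casp1, the inflammasome protease, was at 36.2, 30.3, 30.7, 37.03 and 20.7 CPM against 16.98, 16.2 and 18.7 CPM (-0.84 ± 0.19). The groups did not overlap, and wild type library 5 was the closest to the Acod1-/- libraries. The nucleic acid sensor Tlr7 and the chemokine Ccl9 were also apart (-1.35 and -1.43), while haptoglobin, Hp, overlapped (-1.34), since Acod1-/- library 3 at 2616 CPM was just above wild type library 5 at 2609 CPM. DESeq2 called 10 members lower, and edgeR without Acod1-/- library 3 called 10.

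The genes with the smallest p among those whose groups did not overlap included several of immune cells. H2-DMb1, a chaperone that loads peptides on class II molecules and that has a near-identical neighbour, H2-DMb2, was at 49.1, 50.02, 36.6, 46.1 and 34.2 CPM in wild type and at 18.6, 11.8 and 19.5 CPM in Acod1-/- iWAT (-1.38 ± 0.21). Irf8, a transcription factor of monocytes and dendritic cells, was at 27.7, 24.5, 21.8, 32.2 and 22.9 CPM against 12.8, 10.4 and 14.7 CPM (-1.03 ± 0.18). Tnfrsf1b, a receptor for tumour necrosis factor, was at 26.7, 19.3, 19.03, 30.2 and 19.6 CPM against 10.5, 8.61 and 12.7 CPM (-1.11 ± 0.21). In each of these all 3 Acod1-/- libraries were below the lowest wild type library. Arhgdib, an inhibitor of small GTPases in blood cells, had a log2 fold change of -0.97, and the other 6 on this side were Tpst2 (tyrosine sulfation, -0.67), Mark1 (a microtubule kinase, -1.24), Ggct (glutathione turnover, -0.66), Ehd4 (endocytic recycling, -0.69), Rab31 (vesicle traffic, -0.96) and P2ry2 (a nucleotide receptor, -1.23).

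These 10 genes and the 10 on the other side were picked for their small p, so their separation is a description. All 20 had an adjusted p of 0.19 with edgeR. Without Acod1-/- library 3, edgeR's adjusted p ran from 0.0108 (Ebf2) to 0.0346 (Klf15), and DESeq2's with all libraries ran from 3.57e-06 (H2-DMb1) to 0.000991 (Ehd4).

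**Figure D2:**
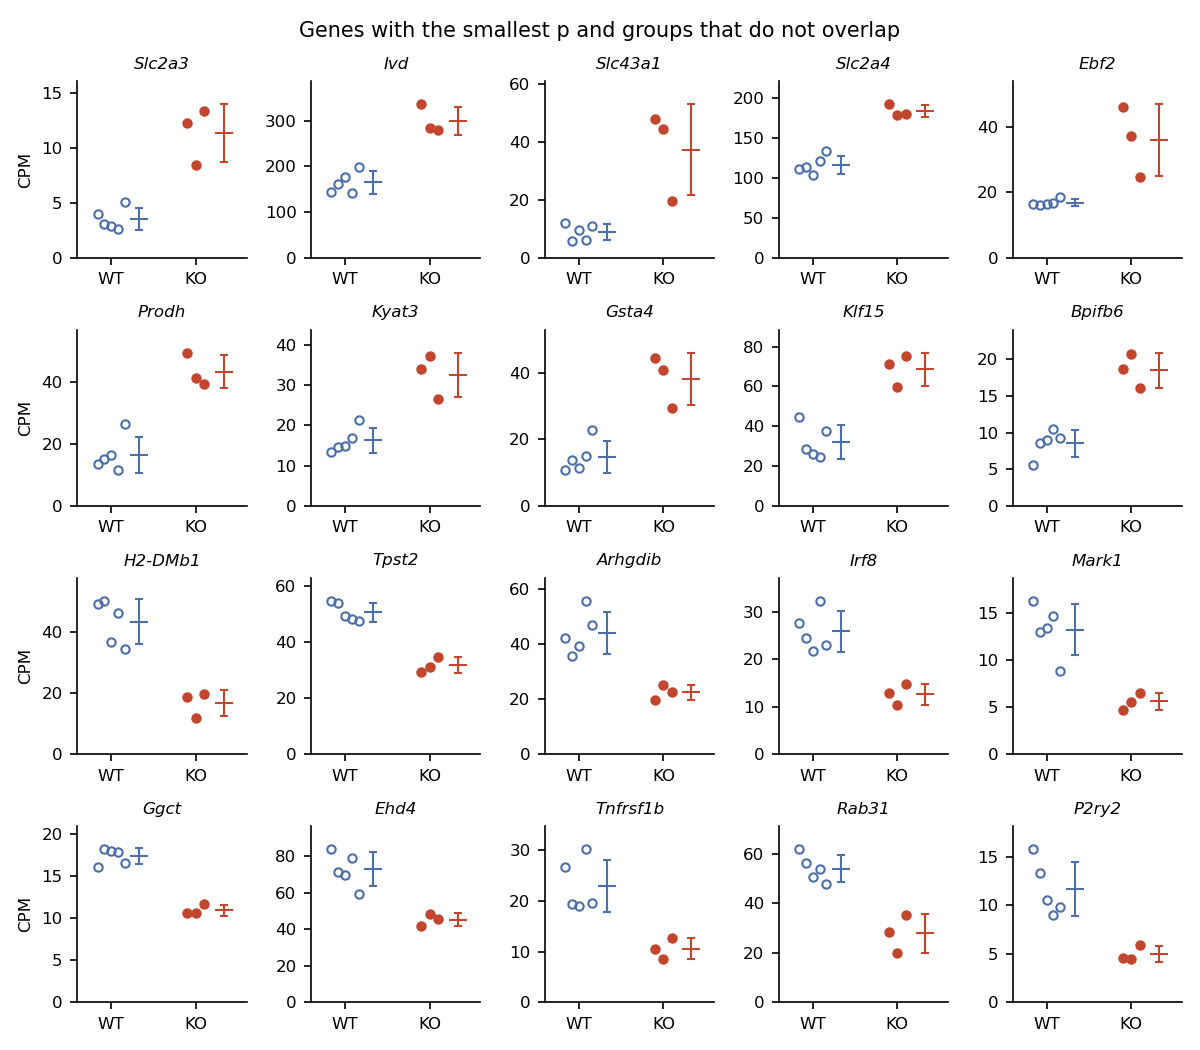
Each panel gives the CPM of 1 gene in 5 wild type (WT, open blue) and 3 Acod1-/- (KO, filled red) libraries, with the mean and SD beside them; the vertical axes start at 0 and differ between panels. The upper 10 genes were higher and the lower 10 lower in all 3 Acod1-/- libraries than in any wild type library, as the rule that picked them requires.

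Genes for the catabolism of branched-chain amino acids were measured higher in all 3 Acod1-/- libraries. Of 20 genes tested, 19 had a positive log2 fold change (median 0.44), 14 had an unadjusted p under 0.05, and 12 lay above every wild type library. The list median was 0.39, 0.46 and 0.38 above the wild type mean in Acod1-/- libraries 1, 2 and 3, outside the wild type span of -0.19 to 0.20, and their summed level was 3737, 3714 and 3586 CPM against 2307 to 2880 CPM. Ivd (chromosome 2, 118861954 to 118882909), the dehydrogenase of the leucine pathway, was at 144, 162, 178, 142 and 199 CPM in wild type and at 336, 285 and 280 CPM in Acod1-/- iWAT (0.87 ± 0.14). Bcat2, the transaminase that starts the pathway, was at 99.8, 105, 105, 100 and 132 CPM against 195, 254 and 150 CPM (0.88 ± 0.17). All 3 Acod1-/- libraries were above the wild type libraries for both genes, closest in library 3 for Bcat2. Aldh6a1, of the valine branch, was at 373 to 484 CPM against 705, 535 and 656 CPM (0.63 ± 0.14). Dbt, a core subunit of the branched-chain ketoacid dehydrogenase, was at 59.7 to 93.0 CPM against 130, 257 and 97.5 CPM (1.17 ± 0.28), and its high value stands in the library with the skin genes. The dehydrogenase subunit Bckdha overlapped (0.46 ± 0.16), and the mitochondrial carrier Slc25a44 was the single member with a negative value (-0.04). edgeR called 11 members higher without Acod1-/- library 3 and 0 without library 2, where the median stayed at 0.44, and DESeq2 called 9.

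Other genes of amino acid and glucose use stood among those with the smallest p. Slc43a1, a transporter of large neutral amino acids, was at 12.1, 5.87, 9.55, 6.00 and 11.01 CPM in wild type and at 48.2, 44.6 and 19.6 CPM in Acod1-/- iWAT (2.07 ± 0.33). Prodh, which starts proline breakdown, was at 13.5, 15.1, 16.4, 11.4 and 26.4 CPM against 49.5, 41.3 and 39.5 CPM (1.39 ± 0.24), and it overlaps Dgcr6 on the opposite strand. Kyat3, an aminotransferase of the kynurenine pathway, was at 13.4 to 21.3 CPM against 34.1, 37.2 and 26.5 CPM (1.001 ± 0.175). Each was above every wild type library, and for Slc43a1 the value of library 3 was below that of libraries 1 and 2. Klf15, a transcription factor of amino acid catabolism, was at 44.5, 28.6, 26.2, 24.5 and 37.5 CPM against 71.1, 59.5 and 75.5 CPM (1.09 ± 0.20).

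The glucose transporter Slc2a4 (GLUT4), which insulin brings to the adipocyte surface, was at 111, 113, 104, 120 and 133 CPM in wild type and at 192, 179 and 180 CPM in Acod1-/- iWAT (0.66 ± 0.11). Slc2a3 (GLUT3), a second glucose transporter, was at 3.997, 3.08, 2.86, 2.63 and 5.05 CPM against 12.3, 8.42 and 13.4 CPM (1.69 ± 0.27). The Acod1-/- libraries were close to each other for Slc2a4, and library 3 was the highest for Slc2a3. Gsta4, which detoxifies products of lipid peroxidation, and the lipid-binding Bpifb6 were also above every wild type library (1.36 and 1.11).

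**Figure D3:**
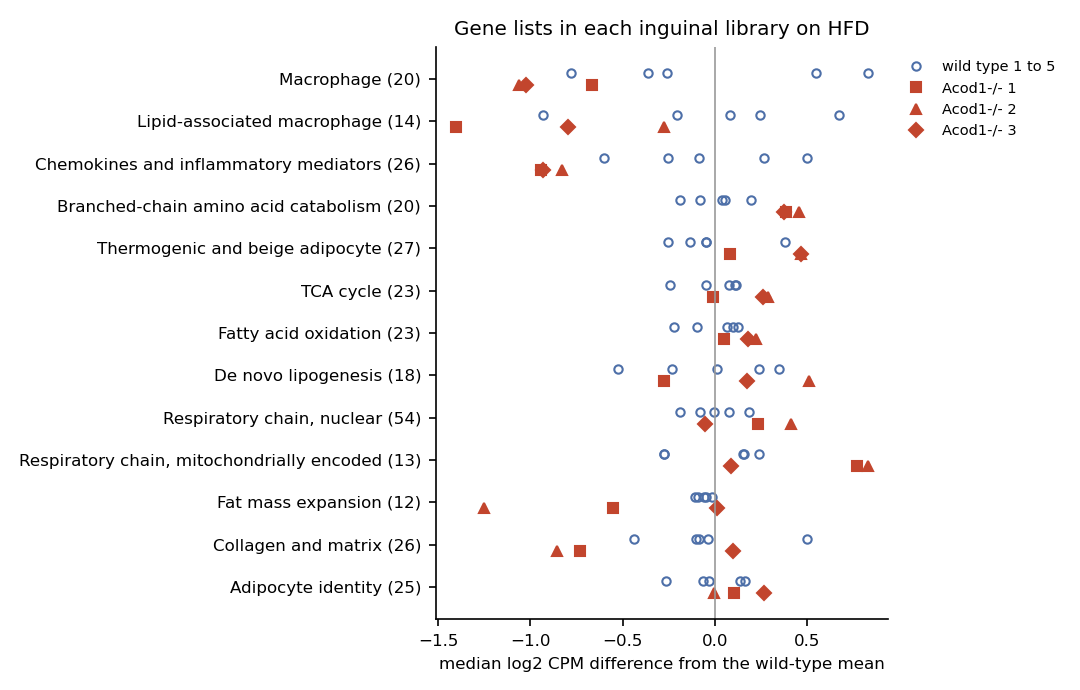
Each row is a gene list with the number of genes tested. The horizontal axis is the median over its genes of the difference in log2 CPM from a wild type mean. For an Acod1-/- library this is the mean of all 5 wild type libraries. For a wild type library it is the mean of the other wild type libraries, which places the circles further from 0. Open circles are wild type libraries 1 to 5, and the square, triangle and diamond are Acod1-/- libraries 1, 2 and 3: the 3 Acod1-/- libraries lie together for branched-chain amino acid genes (0.38 to 0.46) and chemokines (-0.94 to -0.83), while library 3 lies at 0.01 for fat mass expansion and at 0.10 for collagen, apart from libraries 1 and 2.

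Beige and thermogenic genes did not move together. Of 27 tested, 18 had a positive log2 fold change (median 0.23), the unadjusted p was under 0.05 in 10 higher and 2 lower, and 7 lay above and 2 below every wild type library. The list median was 0.08, 0.47 and 0.47 in Acod1-/- libraries 1, 2 and 3, against a wild type span of -0.26 to 0.38. Ucp1 was at 0.395, 1.75, 0.370, 2.01 and 0.574 CPM in wild type and at 0, 4.07 and 9.64 CPM in Acod1-/- iWAT (2.16 ± 1.16, adjusted p = 0.40 with edgeR). The log2 fold change of Ucp1 was 0.99 without Acod1-/- library 3 and turned to -1.53 in limma voom with quality weights. Libraries 2 and 3 were above every wild type library and library 1 had none, whereas the 3 ND-fed wild type libraries were at 2.36, 112 and 590 CPM. Cidea, a lipid droplet protein abundant in brown fat, was at 13.8, 24.2, 33.6, 35.8 and 21.6 CPM against 46.2, 85.9 and 43.1 CPM (1.18 ± 0.32). Ppargc1a was at 4.32, 4.12, 4.52, 4.42 and 7.19 CPM against 7.49, 11.2 and 8.51 CPM (0.88 ± 0.25), and wild type library 5 was just below Acod1-/- library 1. Ebf2, a transcription factor that sets brown and beige identity, was at 16.3, 16.2, 16.3, 16.6 and 18.5 CPM against 46.1, 37.2 and 24.5 CPM (1.10 ± 0.18). Cox8b, a cytochrome oxidase subunit of brown fat, was at 20.7 to 37.6 CPM against 85.1, 172 and 50.7 CPM (1.72 ± 0.34, and 1.13 without Acod1-/- library 2). For Ebf2 and Cox8b, library 3 was the Acod1-/- library closest to wild type. Dio2, the deiodinase that makes active thyroid hormone, went the other way, at 2.07, 2.57, 4.07, 5.76 and 1.27 CPM against 0.607, 0.494 and 0.479 CPM (-2.57 ± 0.55). DESeq2 called 8 of the 27 higher and 1 lower, and edgeR without Acod1-/- library 3 called 9 and 2.

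Adrb3, the adrenergic receptor through which nerves trigger lipolysis and heat production in fat, was at 64.5, 67.8, 231, 162 and 168 CPM in wild type and at 825, 527 and 181 CPM in Acod1-/- iWAT (1.88 ± 0.51). Libraries 1 and 2 were above every wild type library, and library 3 lay inside the wild type range. The ND-fed libraries had 517, 574 and 505 CPM.

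Among 25 adipocyte identity genes, 14 had a positive log2 fold change (median 0.12), the unadjusted p was under 0.05 in 6 higher and 1 lower, and 4 lay above every wild type library. As a list they had medians of 0.11, -0.004 and 0.27 in Acod1-/- libraries 1, 2 and 3, against a wild type span of -0.27 to 0.165. Adipoq, the hormone adiponectin, was at 2463, 3061, 2777, 2456 and 2630 CPM against 2639, 1914 and 2626 CPM, and Pparg, the master regulator of adipocytes, at 151 to 178 CPM against 178, 158 and 206 CPM. Both overlapped (-0.16 ± 0.16 and 0.12 ± 0.12). Cfd, the serum protease adipsin, varied widely, at 477 to 2025 CPM in wild type and 5628, 4052 and 1742 CPM in Acod1-/- iWAT (2.06 ± 0.50), with library 3 inside the wild type range. Lgals12, a galectin of lipid droplets, was above every wild type library (0.87 ± 0.21).

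Genes tied to fat mass expansion separated Acod1-/- library 3 from libraries 1 and 2. The list median was -0.55, -1.25 and 0.01 from the wild type mean in libraries 1, 2 and 3, and of 12 genes 11 had a negative log2 fold change (median -0.55), 5 had an unadjusted p under 0.05 and 4 lay below every wild type library. Leptin (Lep), the hormone that rises with fat mass, was at 4178, 5614, 4553, 4851 and 4549 CPM in wild type and at 1474, 653 and 6374 CPM in Acod1-/- iWAT. Libraries 1 and 2 were below every wild type library and library 3 above every one, so the log2 fold change was -0.74 ± 0.58 (edgeR, adjusted p = 0.56) with library 3 and -2.16 without it (edgeR, adjusted p = 0.021). The ND-fed libraries had 615, 235 and 358 CPM. Mest, an imprinted gene of growing adipocytes, was at 1257, 1921, 1746, 1291 and 1293 CPM against 516, 298 and 980 CPM (-1.33 ± 0.35), and at 48.9, 5.96 and 10.2 CPM in the ND-fed libraries. All 3 Acod1-/- libraries lay below the wild type libraries for Mest, with library 3 nearest to them. The imprinted Peg10 (-2.16 ± 0.53) and the activin subunit Inhbb (-0.55 ± 0.17) also lay below every wild type library, whereas the matrix protein Thbs1 overlapped (-1.40 ± 0.39). The part of body or fat pad weight in these values was not tested.

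**Figure D4:**
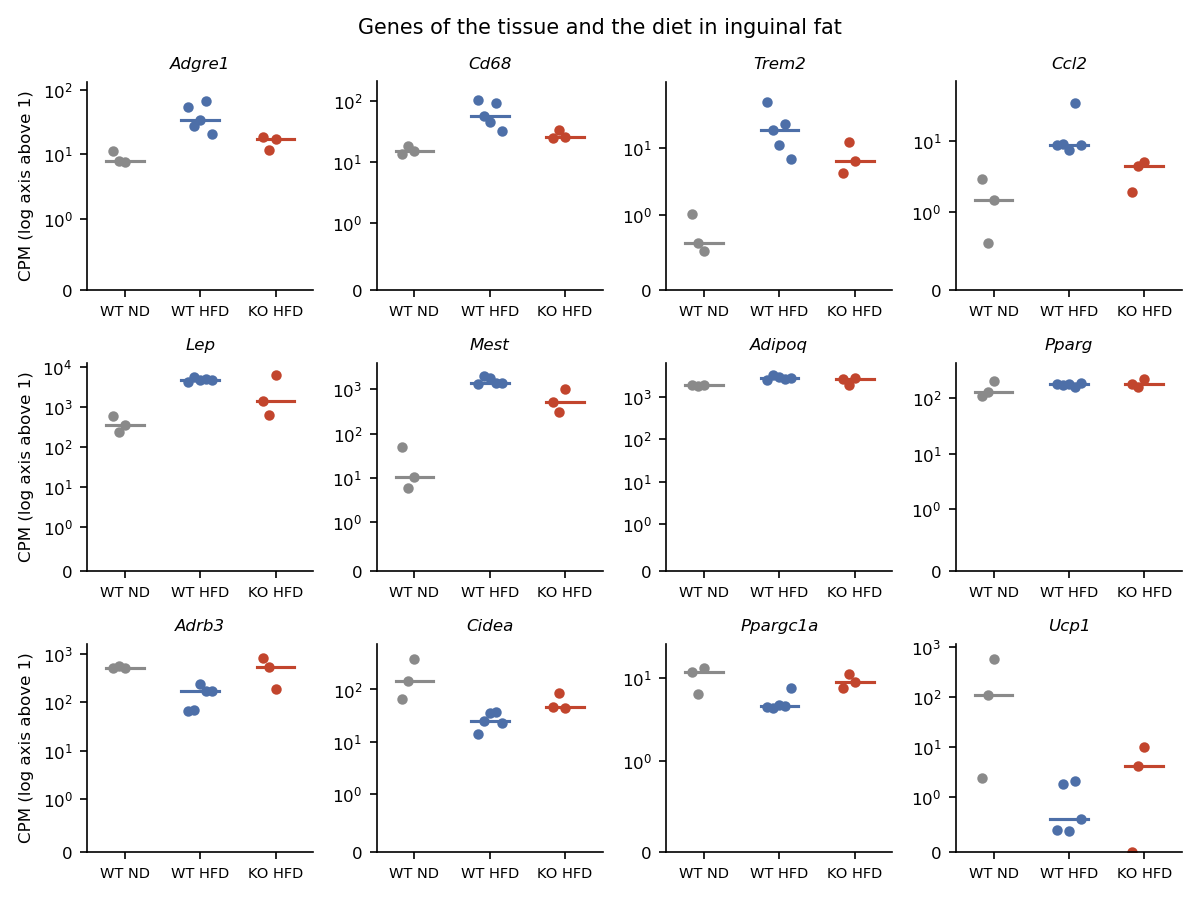
Points are the CPM of each iWAT library from ND-fed wild type (grey, 3), HFD-fed wild type (blue, 5) and HFD-fed Acod1-/- (red, 3) mice, with the group median as a bar; the vertical axis is linear up to 1 CPM and logarithmic above. Adgre1, Ccl2 and Mest were lower in every Acod1-/- than in any HFD-fed wild type library, Cd68 and Trem2 overlapped, Lep and Adrb3 were split, with 1 Acod1-/- library at or above the wild type values of Lep and inside those of Adrb3, and Adipoq and Pparg overlapped too.

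Lipogenic genes were mixed, and some rested on Acod1-/- library 2. Of 18 genes of de novo lipogenesis, 10 had a positive log2 fold change (median 0.28), and the unadjusted p was under 0.05 in 7 higher and 1 lower, and 4 lay above every wild type library. Their summed level was 42196, 39608 and 44330 CPM in Acod1-/- libraries 1, 2 and 3, above the 27180 to 35315 CPM of the wild type libraries. The list median was -0.28, 0.51 and 0.18 in Acod1-/- libraries 1, 2 and 3, and the median log2 fold change without library 2 was -0.10. Wild type libraries spanned -0.53 to 0.35, with Acod1-/- libraries 1 and 3 inside. Thrsp, a lipogenic regulator, was at 285, 243, 308, 281 and 279 CPM against 523, 605 and 344 CPM (0.81 ± 0.17). The fatty acid desaturase Fads2 was at 4.24 to 7.89 CPM against 2.94, 165 and 7.0 CPM, and its log2 fold change of 3.41 became -0.13 without library 2, which also held the skin and sebaceous genes. Thrsp was above every wild type library in all 3 Acod1-/- libraries, whereas Fads2 was so only in library 2.

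Mitochondrial genes had small positive log2 fold changes, not in every Acod1-/- library. Of 23 genes of the TCA cycle, 19 had a positive log2 fold change (median 0.25), 7 had an unadjusted p under 0.05 and 5 lay above every wild type library. The list median was -0.01, 0.29 and 0.26 in Acod1-/- libraries 1, 2 and 3, so library 1 was inside the wild type span of -0.24 to 0.11. Sdhb, a subunit of succinate dehydrogenase, the enzyme that itaconate inhibits, was 0.44 ± 0.12 higher on the log2 scale, with groups that did not overlap, while citrate synthase (Cs) had a log2 fold change of 0.27. Of 23 fatty acid oxidation genes, 16 had a positive value (median 0.13) and 6 lay above every wild type library, among them Echdc2 (0.84) and Hadh (0.34), while the carnitine transferase Cpt1a was at -0.36. Here too library 1 (0.05) was inside the wild type span of -0.22 to 0.13, and libraries 2 and 3 (0.22 and 0.18) were above it.

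For the respiratory chain, 52 of 54 nuclear genes (median 0.21) and all 13 mitochondrially encoded genes tested (median 0.62) had a positive log2 fold change, but in 2 of each did all 3 Acod1-/- libraries lie above wild type. For the nuclear genes this is close to the share over all genes, 3.95%. The nuclear median was 0.23, 0.41 and -0.05 and the mitochondrially encoded one 0.77, 0.83 and 0.09 in libraries 1, 2 and 3. mt-Cytb, of complex III, was at 9182, 12267, 12316, 12844 and 10008 CPM in wild type and at 19958, 20042 and 12285 CPM in Acod1-/- iWAT (0.62 ± 0.21). Libraries 1 and 2 were far above the wild type libraries and library 3 was among them. Mitochondrially encoded genes took 8.65%, 9.56% and 6.35% of the counts in Acod1-/- libraries 1 to 3 and 5.52% to 7.40% in wild type, and reads on no annotated feature took 11.9%, 9.98% and 7.26% against 6.96% to 9.78%. Both shares were higher in libraries 1 and 2 than in any wild type library, and their part in these results was not tested. Without library 3, edgeR called 19 nuclear and 7 mitochondrially encoded genes higher, and DESeq2 with all libraries called 0 and 4.

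Matrix genes were also split by library. None of 26 collagen and matrix genes had a positive log2 fold change (median -0.33), 7 had an unadjusted p under 0.05 and 2 lay below every wild type library, with list medians of -0.73, -0.86 and 0.10 in Acod1-/- libraries 1, 2 and 3. The share of all genes below every wild type library was 4.44%, so 2 of 26 is not far from it. The collagens Col1a1 and Col1a2 had log2 fold changes of -0.07 and -0.32, and Timp2, an inhibitor of matrix proteases, -0.84 with separated groups. Without library 3, edgeR called 15 of the 26 lower, and with all libraries DESeq2 called 2. All 14 fibroblast and progenitor markers had a negative value (median -0.57, and -0.27, -0.86 and -0.36 from the wild type mean in libraries 1, 2 and 3), and 3 lay below every wild type library, among them Pi16, a marker of early progenitors, at 187.8, 73.1, 85.6, 155 and 113 CPM against 49.5, 23.8 and 51.2 CPM (-1.56 ± 0.37). All 12 endothelial markers were negative too (median -0.30, and -0.17, -0.24 and -0.71 in libraries 1, 2 and 3), with Vwf (-0.68 ± 0.15) below every wild type library. Wild type libraries spanned -0.39 to 0.44 for the endothelial list, with Acod1-/- libraries 1 and 2 inside. For the fibroblast and progenitor list they spanned -0.30 to 0.54, and Acod1-/- library 1, at -0.27, was near the lower end. Since this span is widened by its reference, library 1 is not counted as inside or outside. Without library 3, 4 of the 12 endothelial markers had a positive log2 fold change.

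Lymphocyte and skin markers moved with the groups through single libraries. All 18 B and T lymphocyte markers tested had a negative log2 fold change (median -1.86), and 1 lay below every wild type library: Trac, the T cell receptor alpha chain, at 5.33, 4.96, 9.62, 9.54 and 16.0 CPM against 2.28, 1.02 and 2.13 CPM (-2.32 ± 0.47). A count of 1 in 18 is close to the share over all genes, of which 4.44% lay below every wild type library. The summed lymphocyte markers overlapped, at 662 to 1016 CPM in wild type and 577 to 919 CPM in Acod1-/- iWAT. Skin markers had a median log2 fold change of 5.27 over 8 genes and skeletal muscle markers 1.21 over 12, of which none had an unadjusted p under 0.05. The part of a lymph node, skin or muscle piece in any library was not tested.

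The study grouped genes of this comparison into 5 lists, which it chose on these libraries, so their direction is not independent evidence. Of its inflammatory response genes, 35 were tested, all had a negative log2 fold change (median -1.01) and 15 lay below every wild type library. All 22 wound healing genes were negative (median -0.88, 10 below every wild type library). All 9 genes of amino acid catabolism (median 0.87) lay above every wild type library, as did 7 of 8 of fatty acid catabolism (median 0.86) and 2 of 4 of the response to dietary excess (median 1.42). Pck1, the gluconeogenic and glyceroneogenic enzyme, stands among the fatty acid genes and was at 732, 734, 857, 502 and 1493 CPM against 2536, 2804 and 2132 CPM (1.53 ± 0.30). Its Acod1-/- libraries were all above the wild type libraries, and its ND-fed libraries were at 3620, 3068 and 4998 CPM.

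The genotype change was also measured in eWAT, the visceral pad, and the difference between the depots was tested as an interaction in 1 edgeR fit of 18 libraries and 14651 genes. It called 0 genes in each direction (0.0%), with 1276 (8.71%) at an unadjusted p under 0.05, and DESeq2's Wald test called 9 positive (0.0614%) and 6 negative (0.041%). Without Acod1-/- library 3 of iWAT, edgeR called 116 positive (0.79%) and 66 negative (0.449%). The labels do not say whether the depots came from the same mice. For macrophage markers the median log2 fold change was -1.02 in iWAT and -1.82 in eWAT, for lipid-associated macrophage genes -0.57 and -2.11, for chemokines -0.998 and -1.30, for branched-chain amino acid genes 0.43 and 0.68, and for thermogenic genes 0.22 and -0.19. No member of these lists passed the test of the difference in edgeR.

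The gene with the smallest p of the interaction was Cxcl14, a chemokine made by adipocytes and fibroblasts. In iWAT it was at 30.2, 44.8, 38.9, 43.3 and 56.4 CPM in wild type and at 72.2, 51.4 and 54.4 CPM in Acod1-/-, and in eWAT at 8.86 to 24.0 CPM in wild type and 1.91 to 5.88 CPM in Acod1-/-. The groups overlapped in iWAT (0.47 ± 0.34 in this fit) and were apart, and lower, in eWAT (-2.35 ± 0.32), with a difference of 2.82 ± 0.46 (edgeR, adjusted p = 0.14, and DESeq2, adjusted p = 2.3e-05). On the other side stood Ptgs1, the cyclooxygenase COX-1, at 13.9, 14.6, 14.3, 13.5 and 13.5 CPM in wild type and 9.34, 9.32 and 9.78 CPM in Acod1-/- iWAT, against 10.8 to 13.3 and 11.8 to 16.5 CPM in eWAT (difference -0.87, DESeq2 adjusted p = 0.00282). Its values in iWAT did not overlap and in eWAT did. Tpst2 differed by -0.69 between the depots (DESeq2, adjusted p = 0.047) and Cdk6, a cell cycle kinase, by 1.82 (DESeq2, adjusted p = 0.0412). Lgals7, Awat2 and Pdss1, also among the genes with the smallest p of the interaction, were high in Acod1-/- library 2 of iWAT alone.

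**Figure D5:**
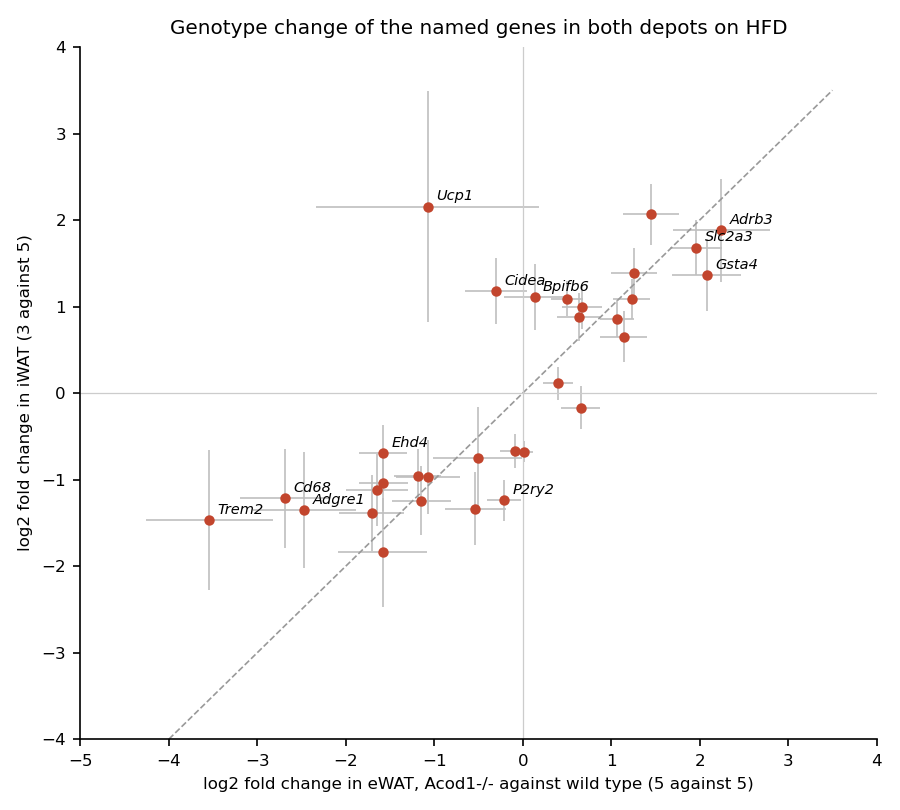
Each point is a gene named by its small p or as a gene of the tissue, with the log2 fold change in Acod1-/- against wild type mice on HFD in eWAT (horizontal, 5 against 5 libraries) and in iWAT (vertical, 3 against 5), both from the 18-library fit. Bars are SE and the dashed line marks equal changes: Trem2 (-3.54 in eWAT, -1.47 in iWAT) and Cd68 (-2.69 and -1.22) lie further from 0 in eWAT than in iWAT, and Ucp1 has wide error bars in both.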

How the data were processed

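RNA of 8 inguinal fat pads was sequenced as directional mRNA libraries. The authors trimmed reads with cutadapt, removed contaminants and aligned to GRCm38 (mm10) with STAR, and they deposited counts of reads per gene without normalization (54752 genes, 54723 with a symbol in GENCODE vM21). The counting program and its use of strand are not given in the sources used here, so overlapping genes are a limit. The FPKM columns were not used.

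The 5 classes of uncounted reads were dropped and genes averaging 1 CPM or more over the libraries fitted were kept. Counts were scaled by TMM and tested with edgeR 4.0.16 (quasi-likelihood, R 4.3.3) with Benjamini-Hochberg adjustment over all genes tested, called at an adjusted p under 0.1, with no covariates. DESeq2 1.42.0 and limma 3.58.1 served as alternatives. For differences in log2 CPM, a prior count of 2 was used. No 2 libraries of the same group were copies of each other (lowest chi-square per degree of freedom 39.2). P-values set a difference against the spread between libraries within the groups. Among the Acod1-/- libraries, this spread also holds the labelled diet time and the series of the file headers. The floor of 3 counts covers counting error only. The fits were also run on simulated counts with known changes, in which no library was set apart. Such counts cannot show how the fits behave with libraries such as Acod1-/- libraries 2 and 3.

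Genes named are the 10 per direction with the smallest p, a mean of at least 5 CPM and groups that do not overlap, Acod1, 12 genes of the tissue, up to 4 members with the smallest p and the first 2 of each list, and 5 per direction of the depot comparison. Of 558 names on the lists, 556 matched. Genes particular to 1 library and Slc25a44 were named after their values were seen. The comparison, its gene lists and the rule for naming genes were chosen with earlier results of these data known. Some genes that this rule names are not reported here.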

Additional observations from a re-analysis of the deposited data

Results flagged for a closer look

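In 66 sets of 5 wild type values, covering the named genes and the summed gene lists, a library was set apart when its gap to the nearest other library exceeded 0.71 of the whole range, which chance gives in about 1 in 20 sets. This was met 5 times. Wild type library 5 had the highest Ebf2 (18.5 CPM, others 16.2 to 16.6) and the highest Ppargc1a (7.19 CPM, others 4.12 to 4.52), and the lowest sum of lipid-associated macrophage genes (8723 CPM, others 10930 to 11600). Wild type library 4 had the highest Ccl2 (32.7 CPM, others 7.21 to 8.63) and the highest sum of endoplasmic reticulum and integrated stress genes (3199 CPM, others 2113 to 2405).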

How the results depend on the processing

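With 3 Acod1-/- libraries, the number of genes called depended on which were fitted. Both counts were 0 without the low-count filter, when every library had to reach 1 CPM, with size factors from DESeq2, at the stricter threshold of 0.05, the series in the file headers as a term, limma voom with quality weights (lowest weight 0.319, Acod1-/- library 3) and a fit of all 11 iWAT libraries. DESeq2's Wald test called 347 higher and 528 lower, the series of wild type libraries 1 to 4 alone 1026 and 1131, and the libraries labelled 16 weeks alone, added after seeing the data and with 1 Acod1-/- library assumed to vary like the wild type ones, 701 and 793. Leaving out each library in turn gave 0 to 1301 higher and 0 to 1269 lower: 1301 and 1269 without Acod1-/- library 3, 22 and 21 without wild type library 5, and 0 without any other. A replicate block called 7 and 4. Same-numbered libraries deviated from their group means with correlations of 0.18, -0.10 and -0.02, and not every library correlated best with its own number. These 3 correlations gave no sign of pairing by number but are too few to exclude it. For the depot interaction, dropping the filter and asking 1 CPM of every library called 1 each, DESeq2 15, and leaving out each library 0 to 182 (182 without Acod1-/- library 3 and 24 without library 1 of iWAT, 1 without wild type library 3 or Acod1-/- library 5 of eWAT). The Acod1 difference ranged from -0.0599 to -0.00969 CPM over the libraries left out, against -0.0393 with all. Of 574 fold changes of 32 genes under 18 settings, 459 kept their direction and side of the threshold, 114 kept their direction and passed it, and 1 reversed: Ucp1, at -1.53 with quality weights. This tally was largely fixed in advance. Of the 32 genes, 20 were picked from these libraries for small p and groups that do not overlap, so leaving a library out could hardly reverse them. No gene could lose a call, since none passed in the main fit. The cause of the changes between settings was not tested.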

Other observations

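Of 17 immediate early genes, which cells induce within minutes of a stimulus, 14 had a negative log2 fold change in Acod1-/- iWAT (median -0.46) and 3 lay below every wild type library. The list median was -0.73, -0.19 and -0.58 in Acod1-/- libraries 1, 2 and 3. Wild type libraries, each set against the others, spanned -0.67 to 0.47. Fos was at 27.2, 22.9, 6.34, 26.0 and 9.86 CPM in wild type and at 3.06, 3.61 and 6.23 CPM in Acod1-/- iWAT (-2.10 ± 0.52), so the groups did not overlap but wild type library 3 was close to Acod1-/- library 3. Egr3 was the exception in size, with a log2 fold change of 3.43 that became -0.78 without Acod1-/- library 2. Circadian genes had a median of 0.46 over 16 genes, with 1 above every wild type library. Their list median was 0.66, 0.44 and 0.38 in Acod1-/- libraries 1, 2 and 3. The wild type span was -0.995 to 0.45, with each wild type library set against the others, so it does not place libraries 2 and 3 inside. Over all genes, 3.95% lay above and 4.44% below every wild type library. Proliferation genes had a median of -0.04 over 18 genes and none had an unadjusted p under 0.05. Endoplasmic reticulum and integrated stress genes had a median of -0.21 over 18, and targets of the oxidative stress factor NRF2 0.11 over 13, among them Hmox1 (heme oxygenase, -1.05) and Gsta4 (1.36). Markers of mast cells (-0.26 over 6), neutrophils (-1.12 over 3), Schwann and smooth muscle cells (-0.35 over 9), red blood cells (0.07 over 5) and subcutaneous fat (-0.08 over 6) had no gene whose groups separated, except 1 lower gene of the Schwann and smooth muscle list.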
